A study of Mus musculus with 4 samples.

Results

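Broad open domains were defined as the autosomal peaks of at least 5000 bp in the single-cell ATAC-Seq (scATAC-Seq) library of undamaged mouse liver. There were 3483 of them among 117333 autosomal peaks and 119839 peaks in all. The series held 4 libraries of hepatocytes from male C57BL/6J mice on a normal diet, labelled 10 to 12 weeks old. One library came from undamaged liver (PHx 0 h), and 1 library each from liver regrowing for 48, 72 and 96 h since partial hepatectomy (PHx), in which surgeons take out some of the lobes. Hepatocytes were isolated by collagenase perfusion, and the 0 and 48 h libraries came from 1 hepatocyte preparation each. For 72 and 96 h the sources used here do not say whether animals were pooled. With 1 library per time point there was no replicate error, so values were compared between libraries and not tested. The peak length chose the domains, and length and level at 0 h are therefore given as a description.

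In ATAC-Seq the Tn5 transposase cuts DNA that is not wrapped tightly in nucleosomes, and the density of cuts marks open promoters and enhancers. Most open sites are short. A peak that runs on for many kilobases can join a promoter, the body of an active gene and nearby enhancers, and such stretches in a differentiated cell tend to lie at genes that define the cell type and at strongly inducible genes. In hepatocytes these genes make plasma proteins, handle nitrogen, glucose, lipids and bile acids, and include the nuclear receptors that control them.

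The sequences below were chosen because the domains around them carry the results: a plasma protein domain that was open in every library (Alb, serum albumin), 3 domains with a larger share of the counts after PHx (Hpx, hemopexin, Hspa5, an endoplasmic reticulum chaperone, and Egfr, the epidermal growth factor receptor), 2 with a smaller share (Slc2a2, the glucose transporter of hepatocytes, and Dbp, a clock output factor) and the longest domain. The first 6 are the 250 bases before the RefSeq start site, read in the direction of transcription (Hpx on the minus strand, the other genes on the plus strand). The last is the central 200 bases, plus strand, of the densest 96 h peak in the longest domain. All were taken from GRCm38.p6, the sequences of the start sites from RefSeq. Capitals mark any match, on either strand, to the motifs of common core promoter elements and of hepatocyte and stress factors. These were searched as TATAAA for the TATA box, CCAAT for the box of that name, GGGCGG for the GC box, CAAAGTCCA for HNF4A, TTGCGCAA for C/EBP, TGTTTAC for FOXA, TTATGTAA for DBP and NFIL3, TGANTCA for AP-1, and the ER stress element, which joins CCAAT to CCACG over 9 bases of any kind and so contains a CCAAT box.
Alb, chr5:90460620-90460869: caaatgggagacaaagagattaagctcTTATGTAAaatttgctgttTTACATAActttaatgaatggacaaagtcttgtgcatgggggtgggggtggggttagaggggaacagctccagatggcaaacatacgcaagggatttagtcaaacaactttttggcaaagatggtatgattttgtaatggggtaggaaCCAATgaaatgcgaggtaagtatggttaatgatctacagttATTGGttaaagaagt
Hpx, chr7:105600117-105600366: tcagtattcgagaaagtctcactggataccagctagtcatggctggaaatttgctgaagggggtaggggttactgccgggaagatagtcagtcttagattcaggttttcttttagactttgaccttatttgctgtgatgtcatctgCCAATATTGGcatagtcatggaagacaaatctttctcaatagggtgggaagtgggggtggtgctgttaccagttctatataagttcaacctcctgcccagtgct
Hspa5, chr2:34771840-34772089: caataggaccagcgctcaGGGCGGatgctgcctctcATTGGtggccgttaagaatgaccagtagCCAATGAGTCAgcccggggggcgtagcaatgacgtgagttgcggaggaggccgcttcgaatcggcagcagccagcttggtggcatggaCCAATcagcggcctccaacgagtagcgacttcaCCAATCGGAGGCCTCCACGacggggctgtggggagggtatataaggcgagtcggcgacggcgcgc
Egfr, chr11:16751953-16752202: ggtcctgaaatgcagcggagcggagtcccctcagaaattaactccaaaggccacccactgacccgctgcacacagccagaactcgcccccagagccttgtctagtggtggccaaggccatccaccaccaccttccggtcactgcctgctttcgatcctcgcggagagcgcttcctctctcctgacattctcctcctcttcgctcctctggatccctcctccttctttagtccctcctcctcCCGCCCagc
Slc2a2, chr3:28697653-28697902: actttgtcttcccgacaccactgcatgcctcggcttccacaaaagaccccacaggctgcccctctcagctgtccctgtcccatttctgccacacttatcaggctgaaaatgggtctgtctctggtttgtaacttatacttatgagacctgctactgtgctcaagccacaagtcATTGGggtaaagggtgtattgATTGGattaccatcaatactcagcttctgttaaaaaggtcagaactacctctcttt
Dbp, chr7:45704997-45705246: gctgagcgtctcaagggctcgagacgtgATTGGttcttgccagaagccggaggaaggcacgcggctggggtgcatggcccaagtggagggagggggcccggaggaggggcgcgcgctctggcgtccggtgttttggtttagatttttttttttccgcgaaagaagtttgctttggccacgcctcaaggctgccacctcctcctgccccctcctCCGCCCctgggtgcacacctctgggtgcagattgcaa
longest domain, chr6:31075924-31076123: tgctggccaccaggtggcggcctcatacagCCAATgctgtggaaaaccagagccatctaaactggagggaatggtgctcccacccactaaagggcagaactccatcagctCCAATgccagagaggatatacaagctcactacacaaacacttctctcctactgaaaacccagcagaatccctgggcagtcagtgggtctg
Alb had 2 matches to the DBP and NFIL3 motif, at bases -223 and -204 from the start site, and Alb and Hpx each held 2 CCAAT boxes. Hspa5 had an ER stress element at base -65, a GC box, an AP-1 match that shares bases with a CCAAT box, and 4 CCAAT boxes in all, 1 of them within the ER stress element. Egfr and Dbp each held a GC box, at bases -9 and -37. Slc2a2 held 2 CCAAT boxes and the window of the longest domain held CCAAT alone among these motifs. Of all 31396 RefSeq windows of this length, 0.108% held the ER stress element, 0.831% the DBP and NFIL3 motif, 6.77% the AP-1 motif, 33.0% the GC box and 33.7% the CCAAT box. Among the 2617 windows whose start site lay in a domain, the shares were 0.344%, 0.459%, 6.50%, 53.2% and 35.6%. Among the 13042 windows with a start site in a shorter 0 h peak they were 0.0690%, 0.575%, 4.13%, 55.3% and 34.1%. The remaining motifs were found in 8.56% (TATA box), 0.688% (HNF4A), 0.306% (C/EBP) and 3.67% (FOXA) of the windows in domains, beside 12.4%, 0.392%, 0.159% and 3.21% of all windows. A match is a run of letters and not a measured binding site.

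The libraries held 3977, 3892, 4256 and 3224 nuclei with at least 1000 counts at 0, 48, 72 and 96 h, and 136582768, 62000846, 24724883 and 14935507 counts in these nuclei. A count is 1 transposase cut in a peak. Depth and time cannot be told apart: the median per nucleus was 26005 counts at 0 h, 11629 at 48 h, 4841 at 72 h and 3681.5 at 96 h. Between 681 and 882 barcodes were shared by any pair of libraries, but only 27 to 60 had at least 1000 counts in both. Of the 0 h nuclei, 877 had a barcode found in another library, and without them the median level of the domains was 478 rather than 950.3 counts per kb. The later levels relative to 0 h moved little without all such nuclei, as given below. Hepatocyte markers were open throughout: each of the 10 markers, among them Alb and Hnf4a, was detected in every library.

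At 0 h the domains made up 2.97% of autosomal peaks, 25.2% of the peak length (38.1 Mb) and 30.1% of the counts in autosomal peaks. The median length was 7505 bp, with quartiles of 5945 and 11803 bp. Of the domains, 1739 were 5000 to under 7500 bp long, 626 were 7500 to under 10000 bp, 764 were 10000 to under 20000 bp and 354 were at least 20000 bp. In each library the smallest gap between peaks was 501 bp, so a domain is a run of open sites that the peak caller did not separate. At the lower limit, the domains in Sept9 (5000 bp), Kmt2d (5001 bp) and Tectb (5001 bp) held 1056, 1178 and 1168 counts per kb. The peaks just too short, in Lin7a (4999 bp), Sdhb (4999 bp) and Birc5 (4998 bp), held 594, 1629 and 1336. These 6 levels ranged from 594 to 1629, with the 3 domains inside that range. The median domain held 950.3 counts per kb (quartiles 627 and 1254), beside 970.1 in the 14234 peaks of 2000 to under 5000 bp and 421 in the 99616 shorter ones.

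The longest domain, 172901 bp at chr6:31050612-31223512, overlapped the noncoding genes Lncpint and Mir29a and no protein-coding gene. It held 953 counts per kb. The next was Mtss1 (113727 bp at chr15:58971692-59085418, 1180 counts per kb), which encodes an actin-binding membrane protein. Then came Rxra (99673 bp at chr2:27671254-27770926, 1029 counts per kb), the shared partner of many nuclear receptors. Ppara, the fatty acid sensor among the nuclear receptors, lay in a domain of 83229 bp at chr15:85730871-85814099. Acsl1, which activates fatty acids, lay in one of 79680 bp, the fibronectin gene Fn1 in one of 76000 bp and the bile conjugate exporter Abcc2 in one of 71103 bp.

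The median level was 929.8, 913, 956 and 1056 counts per kb in the 4 length classes from shortest to longest, and the densest domains were not the longest. The highest level, 52098 counts per kb, was in a domain of 6281 bp at chr17:39842773-39849053 over Gm26917, Gm42418 and AY036118, a locus known for its likeness to the ribosomal RNA repeat, where reads of many copies may be placed. Other dense domains were those of Wars and Slc25a47 (5066 counts per kb), the transcription factor gene Jun (4404) and Zfp36 (3830), whose product destabilises mRNA. Insig1, Slc25a25, Egr1 and the domain of Frmd8 with the noncoding gene Neat1 had 3593, 3542, 3445 and 3436. Early response genes and metabolic genes stood side by side among the densest domains.

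Most domains lay at a gene, but a longer window is likelier to touch one. Of 3483 domains, 3311 (95.1%) overlapped a gene in GENCODE vM21, beside 71.7% of all autosomal 0 h peaks and 85.1% of peaks of 2000 to under 5000 bp. A protein-coding gene was overlapped by 3187, while 124 overlapped other gene types alone and 172 no gene. A transcription start site (TSS) lay in 1883 domains (54.1%), beside 38.5% of peaks of 2000 to under 5000 bp and 6.29% of shorter ones, with the same limit. The share with a TSS was 45%, 50.5%, 62.8% and 85.9% in the 4 length classes from shortest to longest. In all, 2959 of 20807 autosomal protein-coding genes (14.2%) overlapped a domain, and 1917 (9.21%) had their TSS in one. Of these genes, 605 lay wholly inside domains and 760 had more than 1. Adk, adenosine kinase, was split over 14 domains, Zmiz1 over 12 and Slc25a13, the citrin gene, over 11. At the other end, 129 genes of at least 20 kb had 90% or more of the body in domains. These included Rxra, Ppara, Fn1, Acsl1, Plpp3 and Lpin2 at 100%, Cps1 at 99.5% and Foxo3 at 98.6%. By base, 17.6% of the domain sequence was exonic, 64.2% intronic and 18.2% intergenic, beside 10.6%, 55.6% and 33.8% in peaks under 2000 bp. Domains also lay near each other: 1142 were within 5000 bp of another.

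In pooled medians of sequence the domains were close to the next shorter class. Their median GC content was 48.1%, their ratio of observed to expected CpG 0.251 and their repeat content 18.1%, beside 48.8%, 0.260 and 15.3% in peaks of 2000 to under 5000 bp. Domains with a TSS had more CpG than those without (0.318 and 0.211) and a higher level (1133 and 687 counts per kb). Their CpG ratio and GC content (49.0%) were below those of peaks of 2000 to under 5000 bp with a TSS (0.569 and 52.8%). Matches per kb were 0.0198 for the HNF4A motif, 0.144 for FOXA and 0.300 for AP-1 in domains, and 0.0328, 0.185 and 0.335 in peaks under 2000 bp.

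Peaks of the later libraries covered the domains less and less. Of a domain's length, a median of 96.6% lay in a 48 h peak, 76.0% in a 72 h peak and 37.9% in a 96 h peak. Peaks of 2000 to under 5000 bp had medians of 98.4%, 82.9% and 45.2%, and those under 2000 bp 98.1%, 82.9% and 0%. At least 50% of the length was covered in 3367 domains (96.7%) at 48 h, 2942 (84.5%) at 72 h and 1053 (30.2%) at 96 h. Over all autosomal 0 h peaks these shares were 86.2%, 74.1% and 32.2%. No later peak was found in 2, 8 and 159 domains (0.0574%, 0.230% and 4.57%), beside 9.19%, 16.5% and 44.8% of all autosomal 0 h peaks. Covered in full were 785, 121 and 0 domains (22.5%, 3.47% and 0%), beside 39.7%, 19% and 0.487% of all. A longer window is likelier to hold a later peak and less likely to be covered in full. The mean number of later peaks in a domain was 1.73, 2.71 and 2.89. The drop in cover ran beside the drop in counts per library, whose part in it was not tested.

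**Figure D1:**
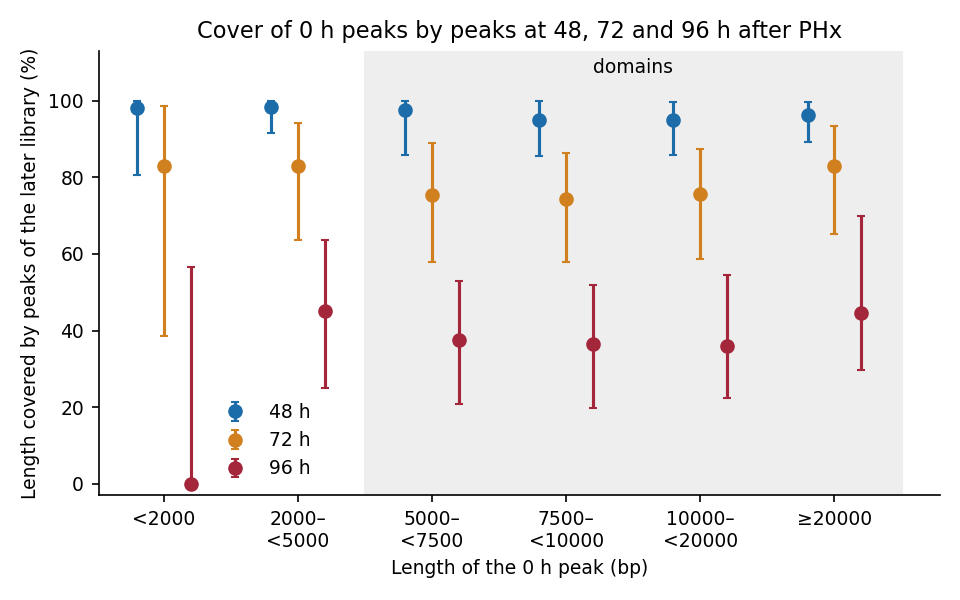
Length of autosomal 0 h peaks covered by peaks of the libraries at 48, 72 and 96 h (y axis, %), by length of the 0 h peak (x axis, bp). Points are medians over peaks, bars the quartiles, and the shaded classes are the domains. In every domain class the median at 96 h lies below that at 72 h, and that at 72 h below that at 48 h.

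In domains with 1 protein-coding TSS, what remained was centred on it. In the 1325 domains with exactly 1 protein-coding TSS, the open stretch reached a median of 1655 bp upstream and 6041 bp downstream, and 1134 (85.6%) reached farther downstream. The first 500 bp after the TSS were covered to 99.4%, 98.0% and 92.7% at 48, 72 and 96 h. From 3000 to 3500 bp downstream the cover was 92.7%, 75.7% and 42.3%, and from 3500 to 3000 bp upstream, where 342 domains reached, it was 89.7%, 67.5% and 36.6%. In these 1325 domains less of the flanks and gene bodies than of the gene start thus lay in a 96 h peak. The 96 h library had the fewest counts, and the part of depth in this pattern was not tested. Domains without a TSS had a median cover of 95.3%, 71.3% and 28.1%, below the 97.3%, 78.8% and 44.4% of those with one.

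**Figure D2:**
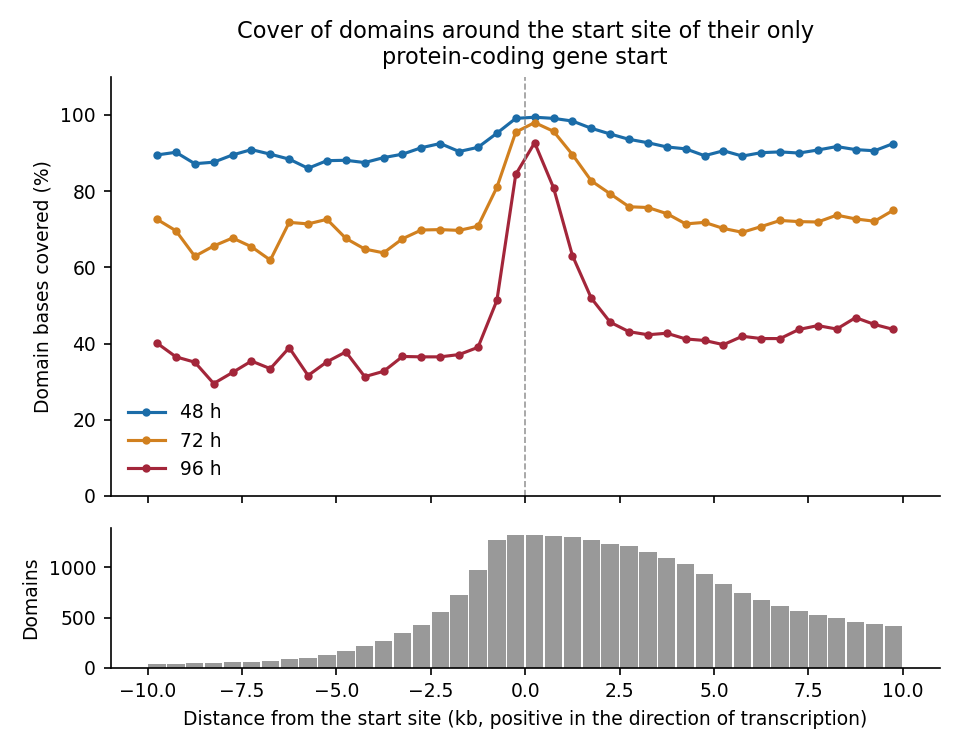
Share of domain bases in a peak of the later library (upper y axis, %) in bins of 500 bp around the TSS (x axis, kb), for the 1325 domains with 1 protein-coding TSS, and the number of domains that reach each bin (lower y axis). All curves peak in the bins beside the TSS, and the 96 h curve falls from 92.7% there to 42.3% at 3000 to 3500 bp downstream.

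The level of each domain after PHx was taken as CPM, its counts in the later peaks inside it scaled to 1000000 counts of the library. Bases with no later peak add nothing to this value, since counts outside peaks were not used here. A later peak that ran past the domain gave it the part of its counts that matched the overlap in length, so a later peak over several 0 h peaks gave each of them the same density. The median ratio to 0 h was 0.814, 0.747 and 0.780 at 48, 72 and 96 h, beside 0.939, 1.04 and 1.15 over all autosomal 0 h peaks with a later peak. Per covered kb, the median ratio was 0.906, 1.07 and 2.12, beside 1.03, 1.30 and 2.27 over all. This value sets the covered bases alone against the whole domain at 0 h. It is the CPM ratio divided by the covered share, so at a given CPM ratio it rises as cover falls. The 0 h density of the covered bases was not measured, so no gain in density can be read from it. CPM was at least 2-fold higher in 26 of 3481 domains at 48 h (0.747%, with 1.08% over all 0 h peaks), 24 of 3475 at 72 h (0.691%, with 5.03%) and 56 of 3324 at 96 h (1.68%, with 13.3%). It was at least 2-fold lower in 178 domains at 48 h (5.11%, with 5.53% over all), 535 at 72 h (15.4%, with 9.24%) and 655 at 96 h (19.7%, with 10.2%). At 72 and 96 h the share of domains called lower was above that over all peaks with a ratio and the share called higher below it, without a test of the difference. Peaks with no later peak have no ratio and were left out of these shares. At 72 and 96 h these were 16.5% and 44.8% of all 0 h peaks, beside 0.230% and 4.57% of domains. Domains and all peaks were thus filtered unequally, and the order of their shares called lower cannot be read as a greater loss in domains. Without nuclei whose barcode occurs in another library, the counts were 25, 23 and 53 higher and 180, 532 and 669 lower. The medians were then 0.817, 0.749 and 0.785, beside 0.920, 1.02 and 1.14 over all 0 h peaks, whose called shares are not given. With counts binarised to open or closed per nucleus and peak, the medians were 0.966, 1.02 and 1.16, above the 0.802, 0.826 and 1.02 over all 0 h peaks, so the order of domains and all peaks was the reverse of that in CPM at each time. Binarised, a nucleus counts once in a domain at 0 h but can count several times over several later peaks. A later peak over several 0 h peaks counts it once. Binarised ratios thus also depend on the number of peaks and are not levels alone. Of the 41 named domains that were recomputed, the order of values given below for Cps1 with the TSS at 72 h, Mtss1 and Nfil3 at 48 and 72 h, Atf3 at 48 h, Hal and Zfp36l1 at all 3 times, Pck1 at 48 and 72 h, and Fgb, Fn1 and Apob at 72 h, among others, turned round under that counting. So did calls: the order at 48 h of Cps1, Egfr, Tnfsf14, Shb and Itih3, and at 1 time or more that of F11, Slc2a2, Gys2, Dbp, Ppara, Mlxipl, Pygl, Zfp36l1, Cyp2f2 and the longest domain, turned round, and the cause was not tested.

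At 48 and 72 h most calls on the high side rested on such wide later peaks, and at 96 h nearly all rested on peaks of the domain's own. At least 50% of the counts came from a later peak over 2 or more 0 h peaks in 608 of 3481 domains at 48 h (17.5%), 134 at 72 h and 2 at 96 h. Of the domains called higher these were 25 of 26 at 48 h, 16 of 24 at 72 h and 1 of 56 at 96 h, and of those called lower 3 of 178, 0 of 535 and 0 of 655. Their ratio in part restates how the 0 h counts were divided among the peaks that later ran together. As a check chosen after the data were seen, overlapping peaks of both libraries were joined and both libraries summed over the joined region. On this scale 28, 38 and 55 domains lay in a region at least 2-fold higher and 174, 535 and 655 in one at least 2-fold lower. A joined region counts bases of the later peak that were in no peak at 0 h, and over all 0 h peaks 11.3%, 16.3% and 13.4% were then called higher and 4.52%, 8.62% and 10.2% lower.

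Across the times, 73 domains (2.10%) were at least 2-fold higher at 1 time or more, beside 11.4% of all 0 h peaks with a ratio. At all 3 times 8 were (0.241%), beside 0.285% of the peaks with a ratio at each time. None of these 8 was called at all 3 times from later peaks of its own. Over joined regions 6 domains were higher at all 3 times (0.181%, beside 3.24% of all 0 h peaks). From the 8 these were Hpx, Hspa5, Cyp2c70 and a domain on chromosome 6 with no gene. Dnajb1 and Rcan1 were not among the 8. The hemopexin gene Hpx, whose product binds free heme, had its whole body in a domain of 14898 bp at chr7:105586757-105601654. Its CPM was 169 at 0 h (95% exact Poisson interval 166–172, counting error only), 484 at 48 h (476–492), 507 at 72 h (495–520) and 865 at 96 h (844–887). Every later library was above the 0 h library, and the domain was still 86.9% covered at 96 h. The 48 h peak also took in 2 neighbouring 0 h peaks, and the joined region had a ratio of 3.14. A domain of 12421 bp at chr2:34769918-34782338 held Hspa5, the chaperone BiP of the endoplasmic reticulum, and part of Rabepk. Its CPM in the 4 libraries, in order of time, was 69.9, 158, 268 and 283, and over the joined regions the ratio to 0 h was 2.89, 4.24 and 4.05. The cochaperone gene Dnajb1, in a domain of 11264 bp at chr8:83607153-83618416 with Tecr, had 79.3, 154, 271 and 410.1 CPM, higher at each time than at the one before. Both chaperone domains had a cover above 92% at 96 h, 92.9% and 97.5%.

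Cps1, the first enzyme of the urea cycle, lay in 2 neighbouring domains. The domain with its TSS (63028 bp at chr1:67122267-67185294) had 657, 749.6, 612 and 988 CPM. The domain over its 3' part (53238 bp at chr1:67185832-67239069) had 237, 633, 505 and 593 CPM. At 48 and 72 h 1 peak spanned both domains, so their separate ratios (1.14 and 2.67 at 48 h) restate the 0 h densities, and the joined region went from 894 CPM at 0 h to 1405 at 48 h and 1123 at 72 h. At 96 h the peaks were separate, and the ratio was 1.5 in the domain with the TSS and 2.50 in the other. Tnfsf14, a ligand of the tumour necrosis factor family, lay at chr17:57193754-57200040 with 24.0 CPM at 0 h, 62.8 at 72 h and 147 at 96 h. Its neighbour, the complement gene C3, lay in a domain of 37587 bp at chr17:57201119-57238705 with 233, 252 and 528 CPM at these times. At 48 h 1 peak spanned both, and the joined region of 60093 bp went from 359 to 678 CPM. Both were thus above 0 h at 72 and 96 h in peaks of their own. Further domains higher at all 3 times were those of Cyp2c70 (11.4, 27.9, 28.4 and 31.7 CPM) and one of 6730 bp at chr6:141875239-141881968 with no gene (25.5, 56.4, 61.0 and 70.4), and their joined regions had ratios of 3.02, 2.71 and 2.77, and 2.62, 2.77 and 2.75. That of Acsl3 and Utp14b had 20.1, 45.5, 63.7 and 72.7 CPM, with 1.57 over the joined region at 48 h. The one with no gene was chosen after its values were seen.

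The domain with the highest ratio at 72 h, 8897 bp at chr16:78338945-78347841 in Cxadr and Btg3, had 22.7 CPM at 0 h, 35.5 at 48 h, 135 at 72 h and 20.2 at 96 h. At 48 and 72 h it lay in a peak over another domain as well, and the joined region at 72 h went from 417 to 716 CPM, a ratio of 1.72 beside 5.95 for the domain. Its level at 72 h is therefore not its own.

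**Figure D3:**
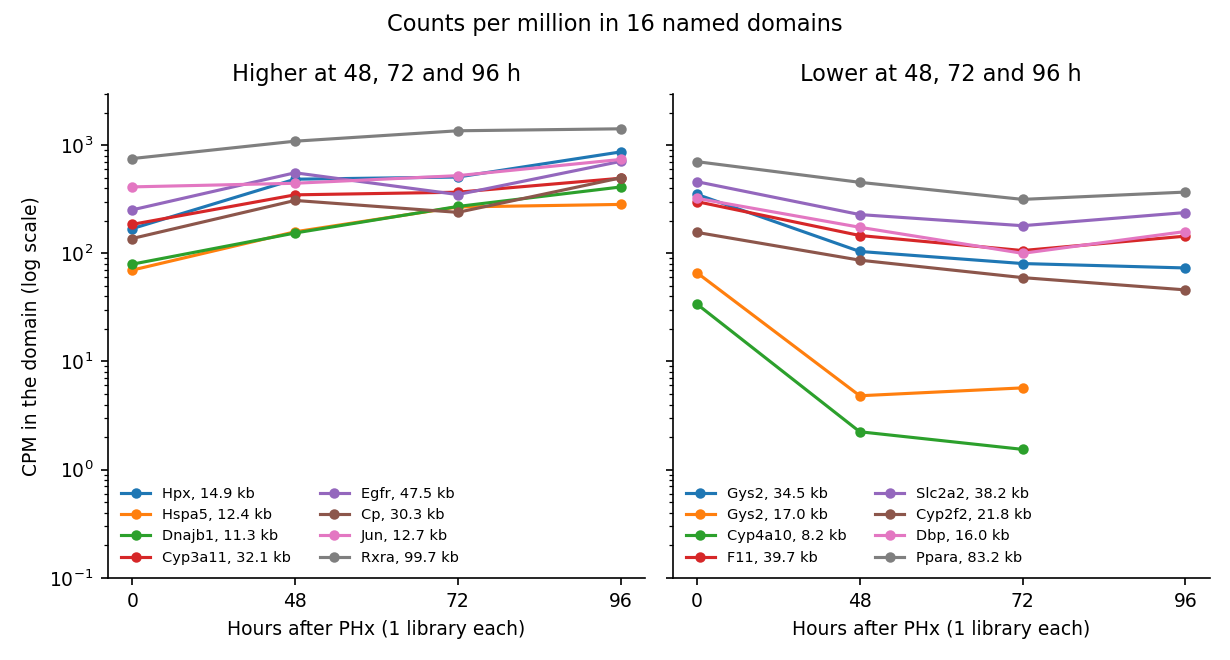
CPM (y axis, log scale) of 16 named domains in each library (x axis, hours after PHx), with the gene and the length of the domain in the key. Left, domains higher at each later time than at 0 h, right, domains lower. In Hpx, Hspa5, Egfr, Cp and Rxra at 48 h and Hspa5, Dnajb1, Egfr, Cp and Rxra at 72 h the later peak ran over another 0 h peak. The domains of Gys2 (17.0 kb) and Cyp4a10 had no peak at 96 h and no point there.

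On the other side, 945 domains (27.1%) were at least 2-fold lower at 1 time or more, beside 17.5% of the 102444 0 h peaks with a ratio. At all 3 times 86 were (2.59% of 3324), beside 0.430% of the 64451 peaks with a ratio at each time. Peaks without a later peak have no ratio and drop out of this background more often than domains do, so the shares are not on equal terms. All 86 were also called lower at the 3 times from later peaks of their own. Gys2, the liver glycogen synthase, had its TSS in a domain of 34540 bp at chr6:142439624-142474163. CPM started from 350.3 at 0 h (346–355), 104 at 48 h (100.4–108), 80.4 at 72 h (75.5–85.6) and 73.2 at 96 h (67.2–79.6), and cover was 61.3%, 39.0% and 13.5%. A second domain of 16985 bp at chr6:142416770-142433754, over the end of Gys2 and Spx, had 66.1 CPM at 0 h, 4.82 at 48 h, 5.70 at 72 h and no peak at 96 h. All later libraries were below the 0 h library in both. Other genes of glycogen and sugar metabolism were among the 86, here chosen after their values were seen. The 86 were mixed and also held domains at Npc1, Klf9 and Rgs16. Ugp2, which makes UDP-glucose for glycogen, had 223, 77.4, 58.2 and 53.9 CPM in a domain of 36294 bp. G6pc, which releases glucose from glucose 6-phosphate, had 404, 138, 101 and 188, Gpi1, an enzyme of glycolysis, 149, 55.2, 63.5 and 50.3, and the fructokinase gene Khk 182, 77.0, 76.8 and 90.7.

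Lower domains also lay at Cyp4a10 and Ppara. Cyp4a10, an omega-hydroxylase of fatty acids that Ppara induces, had 33.9 CPM at 0 h, 2.24 at 48 h, 1.54 at 72 h and no peak at 96 h in a domain of 8150 bp at chr4:115527782-115535931. A domain of 5230 bp in its paralog Cyp4a32 had 34.7, 3.23, 2.87 and 1.67 CPM, and reads of these near-identical genes may be split between copies. The Ppara domain itself had 703, 453, 315 and 368 CPM, lower at every time than at 0 h, and its cover at 96 h was 30.9%. Lowest by ratio at 48 h was a domain of 5582 bp in Lipc, the hepatic lipase gene (ratio 0.0369). Next were domains in Flcn (0.0410), a second of 6574 bp in Lipc (0.0460) and one of 6253 bp in Ak4 (0.0521). Their cover at 48 h was under 5%. Over all 3 Lipc domains the ratio at 48 h was 0.379, and an Ak4 domain of 20514 bp had 0.408. At 72 h the lowest ratio, 0.0144, was in a domain of 7072 bp in Insr, the insulin receptor gene. Next came a domain on chromosome 13 with no gene (0.0189) and one of 6807 bp in Hgd (0.0235), an enzyme of tyrosine breakdown. Over all 5 Insr domains the ratio was 0.528, and over all 4 Hgd domains 0.534. Among the 159 domains with no peak at 96 h (4.57%, with 44.8% of all 0 h peaks) were those in Aox3 (17790 bp, 53.6 CPM at 0 h), Dnmbp (14268 bp, 31.9) and a domain of 18813 bp in Ghr, the growth hormone receptor gene (53.6).

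Domains were concentrated at the genes of hepatocyte function. Of 16 lists of genes by role, 9 had over 80% of their autosomal members in a domain, beside 14.2% of all protein-coding genes. These were the urea cycle and amino acids (95.7%), glucose and glycogen (93.3%), plasma proteins (91.7%), immediate early genes (91.3%), fatty acid metabolism (89.5%), hepatocyte transcription factors (88.0%), apolipoproteins and lipid transport (85.0%), coagulation and complement (84.6%) and bile acids (81.2%). P450 and detoxification genes had 66.7%, clock genes 61.1%, growth signalling 45%, ribosomal proteins 20% and fetal and progenitor genes 15.8%. Of 20 cell cycle genes 1 overlapped a domain (5%), Cdk4, whose domain of 5788 bp had 52.2, 54.4, 47.1 and 53.8 CPM. None of the 16 Hox genes, which set the body axis in the embryo, did. The lists hold well-known liver genes, so these shares are a description.

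**Figure D4:**
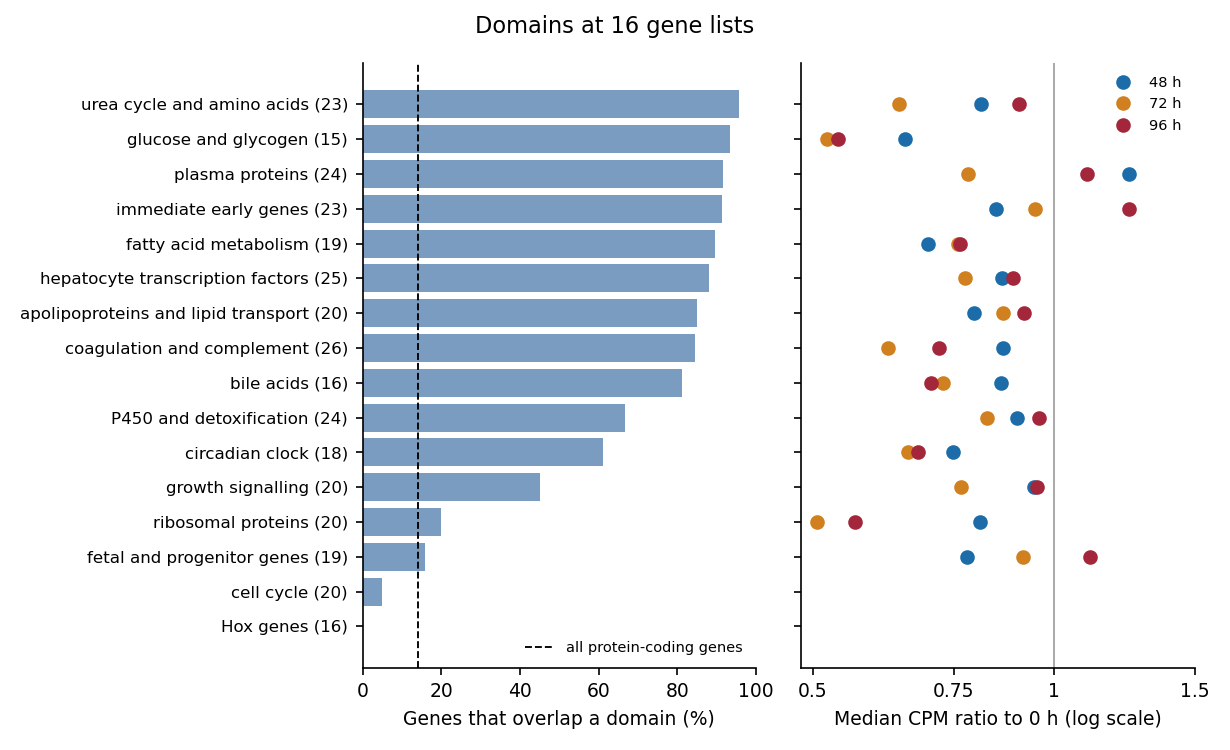
Left, share of autosomal genes of 16 lists that overlap a domain (x axis, %), with the number of genes in brackets and the share of all protein-coding genes as a dashed line. Right, median ratio of CPM to 0 h over the domains of each list at 48, 72 and 96 h (x axis, log scale). Lists of hepatocyte function lie far to the right of the dashed line, cell cycle genes to its left, and the glucose and glycogen list has medians from 0.520 to 0.652.

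Among plasma proteins, which hepatocytes secrete, 22 of 24 genes lay in 29 domains. Their median ratio was 1.24, 0.782 and 1.1, beside 0.814, 0.747 and 0.780 over all domains. These domains were at least 2-fold higher in 4, 2 and 5 cases (13.8%, 6.90% and 17.2%, beside 0.747%, 0.691% and 1.68% of all domains) and lower in 0, 6 and 4 (0%, 20.7% and 13.8%, beside 5.11%, 15.4% and 19.7%). At 48 h all 4 shared their later peak with other 0 h peaks, and without the 11 such domains the median was 0.989. Alb had 553, 820.1, 634 and 719.9 CPM in a domain of 22520 bp at chr5:90459933-90482452, above the 0 h library at each time. The transferrin gene Trf (34458 bp) had 682, 947, 797 and 1243, and the domain of 30319 bp at Cp, the copper carrier ceruloplasmin, 137, 308, 239 and 498. A domain of 8907 bp in Itih3, part of an acute phase inhibitor, had 23.6, 66.2, 31.1 and 91.3 CPM, with 1.69 over the joined region at 48 h beside 2.80. Ahsg, fetuin A, went the other way with 561, 447, 297 and 471. The carriers of iron, heme and copper, Trf, Hpx and Cp, were above 0 h at each time, and the list as a whole was mixed.

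In coagulation and complement, 22 of 26 genes lay in 28 domains, with a median ratio of 0.863, 0.620 and 0.718. A single domain of 54278 bp at chr3:83002010-83056287 held all 3 fibrinogen genes, Fgb, Fga and Fgg, with 673 CPM at 0 h, 952 at 48 h, 510.1 at 72 h and 1651 at 96 h. It was high at 48 and 96 h and below the 0 h library at 72 h. With binarised counts the ratio at 72 h was 4.66, where its 0 h peak was set against 7 later peaks. Serpinc1, antithrombin, was nearly level at 335, 324, 339 and 384 CPM, and Plg, plasminogen, had 325, 293, 199 and 317. F11, coagulation factor XI, was at or below 0.488 of its 0 h level at all 3 times with 300.3, 146, 106 and 144 CPM, and its cover at 48 h was 62.2%.

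For nitrogen and amino acids, 22 of 23 genes lay in 30 domains, with a median ratio of 0.810, 0.641 and 0.906. Beside Cps1, the urea cycle gene Ass1 had 476, 499, 550.3 and 455 CPM over 56545 bp, within 1.16-fold of the 0 h level. Hal, which breaks down histidine and marks periportal hepatocytes, had 438, 236, 249 and 296 CPM. Cth, which makes cysteine, was chosen after its values were seen and had 309.6, 498, 658 and 856 CPM over its 2 domains.

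Glucose and glycogen genes had the lowest medians of the 9 lists with over 80% in domains. For 14 of 15 genes and 26 domains the median ratio was 0.652, 0.520 and 0.538, with 8, 12 and 10 domains at least 2-fold lower (30.8%, 46.2% and 41.7%, beside 5.11%, 15.4% and 19.7% of all domains) and 1 higher at each time. At 48 and 72 h the one called higher shared its later peak with other 0 h peaks. Slc2a2, in a domain of 38179 bp at chr3:28693796-28731974, had 459 CPM at 0 h, 228 at 48 h, 179.9 at 72 h and 238 at 96 h. Pygl, liver glycogen phosphorylase, had 206, 103, 132 and 119.9 in its longest domain. Pck1, the key enzyme of gluconeogenesis, and Fbp1, which acts in the same pathway, had 743, 588, 415 and 888 and 469, 323, 299 and 453. Pygl and the Gys2 domain with the TSS were below 0 h at all later times in CPM. Their binarised ratios were above 1 (1.02, 1.46 and 1.76, and 1.35, 1.1 and 1.08), over 2, 3 and 5, and 8, 12 and 6, later peaks. Pck1 was above its 0 h level at 96 h.

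In lipid metabolism the picture was divided. Fatty acid metabolism (17 of 19 genes, 30 domains) had a median ratio of 0.697, 0.759 and 0.764. Mlxipl, a carbohydrate-sensing factor, had 299, 175, 145 and 186 CPM. Srebf1, the factor that drives lipid synthesis, had 419, 292, 391 and 379, and Insig2, which restrains it, 301, 223, 210.2 and 372 in its longest domain. The cholesterol synthesis gene Hmgcs1 and the fatty acid synthase gene Fasn, named after their values were seen, had 219, 332, 471 and 526 and 655, 265, 506 and 455. For lipid transport (17 of 20 genes, 25 domains) the median was 0.794, 0.865 and 0.919. Apob, the core protein of VLDL, had 727, 874, 676 and 997 CPM over 46749 bp, and the domain of Apoe and the Apoc genes 431, 342, 201 and 295.

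Detoxification and bile acid genes had long domains with values on both sides of 0 h. The Ugt1a domain, with the bilirubin enzyme gene Ugt1a1, had 755, 801, 684 and 837 CPM over 59335 bp. The P450 gene Cyp3a11 had 185, 347, 367 and 494, whereas its paralog Cyp3a25 had 494, 289, 263 and 461 and Cyp2f2, a periportal P450, 156, 86.4, 59.6 and 45.9. For bile acids, 13 of 16 genes lay in 28 domains with a median ratio of 0.859, 0.728 and 0.702. Abcc2 had 692, 539, 409 and 486 CPM, the uptake carrier Slco1b2 379.9, 335, 242 and 223, and a domain of 43426 bp that held the TSS of Crot, a peroxisomal acyltransferase, and part of Abcb4, the phospholipid exporter of bile, 395, 455, 364 and 726. Over all 5 domains that overlap Abcb4 the ratio was 1.03, 0.859 and 1.36.

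Hepatocyte transcription factors (22 of 25 genes, 46 domains) had a median ratio of 0.862, 0.775 and 0.889. Rxra had 751 CPM at 0 h (745–758), 1087 at 48 h, 1357 at 72 h and 1415 at 96 h (1388–1442), and was the sole domain of the 15 longest above 1.4-fold at all later times. Hnf4a, the central factor of hepatocyte identity, had 245, 268, 229 and 245 CPM in its longest domain, within 1.1-fold of 0 h. The 19377 bp domain with an Hnf4a TSS had 80.6, 80.1, 89.8 and 132. Nfic and Foxa3 had 281, 218, 209 and 234 and 216, 203, 166 and 195.

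Inducible genes lay in dense domains. Immediate early genes (21 of 23 genes, 21 domains) had a median ratio of 0.846, 0.948 and 1.24, with 0, 0 and 3 domains at least 2-fold higher (0%, 0% and 14.3%, beside 0.747%, 0.691% and 1.68% of all domains) and 1, 2 and 0 lower (4.76%, 9.52% and 0%, beside 5.11%, 15.4% and 19.7%). Jun had 411, 444, 522 and 737 CPM, and the domain of Atf3, a stress-induced factor, 530.1, 405, 746 and 986. Btg2, which restrains proliferation, had 444, 448, 463 and 671. Zfp36l1, over 47059 bp, was lower at each time with 665, 431, 295 and 464. The 96 h library was thus the highest for Jun, Atf3 and Btg2 but not for Zfp36l1. Clock genes (11 of 18 genes, 18 domains) had a median ratio of 0.748, 0.657 and 0.676. Dbp, in a domain of 16044 bp at chr7:45703475-45719518 shared with Sphk2 and Rpl18, had 322, 174, 99.9 and 159 CPM, and Nr1d1, the repressor REV-ERB alpha, had 203, 130.1, 104 and 128. Nfil3, which binds the same motif as Dbp and represses, had 197, 172, 194 and 365. The sources used here do not give the hour of day at which livers were taken.

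For growth signalling 9 of 20 genes lay in 25 domains with a median ratio of 0.944, 0.765 and 0.953. Egfr, in a domain of 47542 bp at chr11:16750906-16798447, had 252 CPM at 0 h (249–256), 555 at 48 h (547–563), 349 at 72 h (339–360.1) and 707 at 96 h (688–726). Every later library was above 0 h and 97.7% of the domain was covered at 96 h. At 48 and 72 h the peak ran over other 0 h peaks, and the joined regions had ratios of 4.17 and 1.68. The longest Ghr domain (30507 bp) had 109.8, 112, 47.9 and 33.5 CPM with a cover of 9.36% at 96 h, and a domain of 10342 bp in Il6ra, the interleukin 6 receptor gene, 30.7, 32.1, 21.3 and 11.4. The 3 fetal and progenitor genes in domains, Gata6, Tnfrsf12a and Prom1, were within 1.73-fold of their 0 h levels, except that the joined region of Tnfrsf12a had a ratio of 1.83 at 48 h.

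The longest domain showed how a broad peak came apart. At 48 h it held 18 peaks that covered 91.2% of its length, at 72 h 44 peaks and 64.5%, and at 96 h 41 peaks and 26.9%. Its CPM was 1207 (1199–1215), 958 (947–969), 649.9 (636–664) and 601 (584–619). Its densest 96 h peak, 693 bp at chr6:31075678-31076370, held 201 counts, and its centre is printed above. Mtss1 kept 72.7% of its length at 96 h in 27 peaks, with 983, 902, 896 and 1042 CPM, and Fn1 90.8% in 8 peaks, with 768, 855, 576 and 1223.

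The long stretches of the later libraries lay for the most part in what was open at 0 h. Peaks of at least 5000 bp numbered 3930 at 48 h, 1955 at 72 h and 467 at 96 h, and 0 h peaks covered a median of 96.1%, 100% and 100% of their length. They overlapped 2716, 1494 and 372 of the domains.

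The preparations held other cells. Nuclei were clustered on peaks outside the domains, and clusters with hepatocyte marker accessibility at least 2-fold (1 on the log2 scale) below that of the largest cluster were called marker-low, a limit set after the clusters were seen. Marker-low nuclei were 317 of 3977 (7.97%) at 0 h, 5.86% at 48 h and 8.62% at 72 h, and no cluster at 96 h met the limit. At 0 h they formed a cluster of 225 nuclei, where 6 of 9 detected endothelial, 0 of 3 myeloid and 1 of 6 stellate and mesenchymal markers were at least 2-fold up, and one of 92 nuclei, where 0 of 9, 2 of 3 and 2 of 5 were. In both, 0 of 5 cholangiocyte markers and 0 of 1 lymphocyte marker were. They held a median of 3501 counts, beside 28564 in the remaining nuclei. In marker-low nuclei 23.2% of counts lay in domains, beside 29.8% in marker-high nuclei. The median difference of the domains, marker-low over marker-high, was -0.37 on the log2(CPM + 1) scale (quartiles -0.92 and 0.18), and that of 58458 shorter peaks 0.04. CPM was at least 2-fold lower in 752 domains (21.6%, with 18.2% of all 61941 peaks compared) and at least 2-fold higher in 83 (2.38%, with 14.2%). Without the 14 domains at the markers themselves, 741 were lower and 83 higher.

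Domains lowest and highest in marker-low nuclei were named after their values were seen. A 7266 bp domain in Serpina1b, an antitrypsin gene, had 44.8 CPM in marker-high and 7.12 in marker-low nuclei. Pcx, pyruvate carboxylase, had 58.5 and 8.45, and both were among the 15 lowest. The highest were Tgm2, transglutaminase 2 (13.5 and 75.2), Marcks (23.6 and 121), Cyp2d22 (19.5 and 94.8) and Rhoc with Mov10 (35.9 and 150.4). Rxra was also above in marker-low nuclei (746 and 1040), and the longest domain nearly equal (1208 and 1161). With marker-high nuclei alone, the median ratios to 0 h were 0.814, 0.745 and 0.777.

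**Figure D5:**
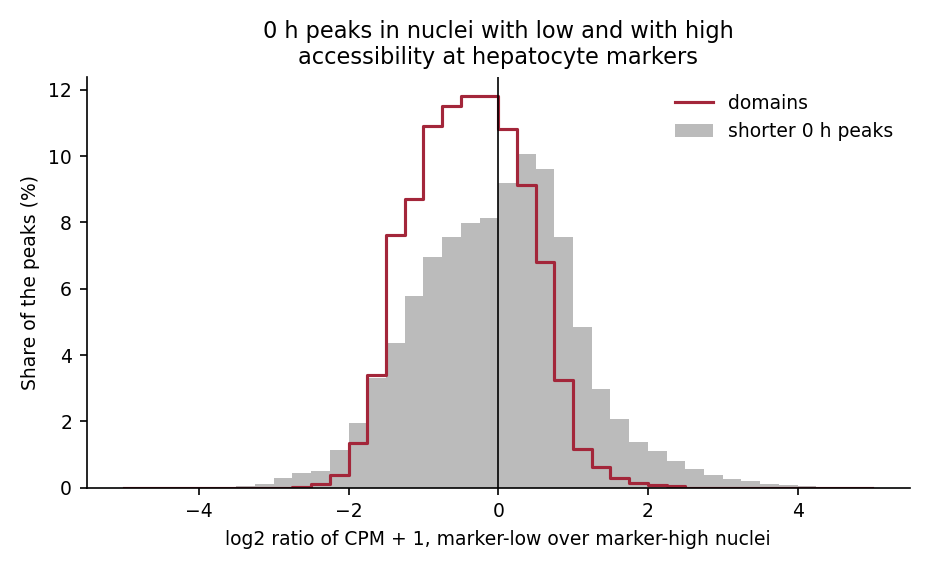
Distribution over 0 h peaks (y axis, % of the peaks of each class) of the log2 ratio of CPM + 1 in marker-low over marker-high nuclei of the 0 h library (x axis), for domains (line) and shorter peaks (bars). The domains are centred below 0, at a median of -0.37, and the shorter peaks near 0, at 0.04.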

How the data were processed

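Per the labels, nuclei of perfused hepatocytes were processed with Chromium Single Cell ATAC v1 chemistry, with 1 library per time point. The authors called peaks in each library and counted with Cell Ranger ATAC (1.1.0 in the file headers; mm10 in the submitters' processing notes). The deposited counts are whole numbers of cut sites per peak and barcode, and the peaks carry no score. Between 87.3% and 88.6% of the counts were even, so exact Poisson intervals (95%) were taken on counts divided by 2; they cover counting error only, and cuts of 1 nucleus are not independent. Barcodes with at least 1000 counts were kept as nuclei and no doublet caller was run.

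Later counts were given to domains in proportion to the overlap of each peak, and a peak over several 0 h peaks was shared out by length. Levels are scaled to 1000000 counts in nuclei (CPM). Ratios needed at least 50 counts at 0 h and a later peak, and a 2-fold ratio was called higher or lower; calling was tested on simulated data. Genes came from GENCODE vM21 and start sites for sequences from RefSeq on GRCm38.p6. Nuclei were clustered per library after latent semantic indexing (30 components, 30 neighbours, Leiden resolution 1.0). Domains and gene lists were chosen with earlier results of these data known. Domains named are the 15 longest, the 10 densest, those with the highest and lowest ratio or cover, those beside the length limit and up to 5 of the longest per gene list. Some domains that meet this rule are not reported here. Python 3.11.15, numpy 2.4.6, scipy 1.17.1, pandas 2.3.3, scikit-learn 1.9.0 and leidenalg 0.10.2 were used. Alternatives were length limits of 4000 and 7500 bp, joined peaks, other nucleus minimums, whole or binarised counts, other scalings, marker-high nuclei alone and, added after the data were seen, overlapping peaks of both libraries joined and domains with shared later peaks left out.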

Additional observations from a re-analysis of the deposited data

Results flagged for a closer look

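A few domains moved in opposite directions between libraries, at least 2-fold above 0 h at 48 h and at least 2-fold below it at 96 h. With 1 library per time point the difference was not tested. The 5280 bp domain in Shb, an adaptor of receptor kinase signalling, had 12.2, 35.4, 25.2 and 3.75 CPM at 0, 48, 72 and 96 h, with ratios to 0 h of 2.90 at 48 h and 0.307 at 96 h. The 6407 bp domain in Acsm1 had a ratio of 2.27 at 48 h and 0.286 at 96 h. The 7514 bp domain at Eid3 and Txnrd1 had 2.02 and 0.375, and the 5160 bp domain in Ctif 2.16 and 0.394. At 48 h each of these 4 domains lay in a later peak that also covered other 0 h peaks, whose counts were shared out by length. Over the joined regions the ratio at 48 h was 1.16 for Shb, 1.47 for Acsm1, 1.13 for Eid3 and Txnrd1 and 0.996 for Ctif, so the 2-fold rise of each domain at 48 h was not a level of its own. In these 4 domains cover fell from 100% at 48 h to between 8.02% and 12.7% at 96 h. The neighbouring Shb domain of 15603 bp lay in the same peak at 48 and 72 h, and at 96 h, in peaks of its own, had 100.5 CPM beside 44.2 at 0 h, with a cover of 71.4%.

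Long peaks also lay on the X chromosome, which the definition of the domains leaves out. Of 2472 X peaks at 0 h, 24 (0.971%) were at least 5000 bp long, and the Y chromosome had 0. The X peaks held a median of 905 counts per kb. The longest, of 17784 bp, lay at Pgrmc1 and Akap17b, and others at the gap junction gene Gjb1 and at Tsc22d3. Their median cover was 98.0%, 77.8% and 44.0% at 48, 72 and 96 h.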

How the results depend on the processing

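No paired analysis was possible because each time point had 1 library. A length limit of 4000 bp gave 5242 domains, 51.3% with a TSS (45.7% for protein-coding TSSs at 5000 bp), a median cover of 97.0% at 48 h and 39.0% at 96 h, and ratios of 0.761 at 72 h and 0.810 at 96 h. A limit of 7500 bp gave 1744 domains, 63.1%, 95.2% at 48 h, and ratios of 0.733 and 0.759. Later peaks with at least the median count per peak covered a median of 74.7% at 72 h and 33.9% at 96 h. Without barcodes found in another library the median level was 478 counts per kb.

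Scaled to counts in peaks shared with 0 h, the median ratio was 0.840, 0.772 and 0.721 at 48, 72 and 96 h, and scaled to the median 0 h peak 0.867, 0.717 and 0.678, with 40 domains higher at 48 h and 31 at 96 h. Whole counts of every overlapping peak gave 0.859 at 48 h, with 235 higher, and 88 higher at 72 h; they include bases outside the domain. With overlapping peaks of both libraries joined, an alternative chosen after the data were seen, the median was 0.850 at 48 h, and 38 domains were higher at 72 h. Without domains that had most of their counts in a later peak over 2 or more 0 h peaks, it was 0.795 at 48 h and 0.736 at 72 h, with 1 domain higher at 48 h and 8 at 72 h. Binarised counts gave 0.966, 1.02 and 1.16, with 83 domains lower at 48 h, 232 higher and 210 lower at 72 h, and 483 higher and 378 lower at 96 h. Over all 0 h peaks the medians were 0.802, 0.826 and 1.02 with binarised counts and 1.09, 1.11 and 1.15 with whole counts. Apart from joined regions, shares of all 0 h peaks called under these alternatives are not given, so these counts of domains have no background.

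Binarised, a nucleus counts once in a domain at 0 h and can count several times over several later peaks, so these ratios also depend on the number of peaks. Counting a nucleus once per peak turned the direction of 22 called ratios of named domains. How much of this came from the number of peaks was not tested. At 48 h these became 0.936 (Cps1, 53238 bp), 0.747 (Egfr), 0.562 (Tnfsf14), 0.493 and 0.420 (Shb), 0.842 (Itih3), 1.82 (F11), 1.91 (Slc2a2), 1.35 (Gys2) and 1.02 (Pygl). At 72 h they became 3.79 (Ppara), 1.46 (F11), 2.22 (Slc2a2), 1.1 (Gys2), 2.67 (Zfp36l1), 1.17 (Dbp), 1.03 (Cyp2f2) and 1.91 (Mlxipl). At 96 h they became 7.36 (longest domain), 1.97 (F11), 1.08 (Gys2) and 1.72 (Dbp). No other alternative turned a called ratio of the 41 named domains. Outside these 41, joined regions took the 48 h ratio of Ctif from 2.16 to 0.996 and that of Man1a from 2.18 to 0.946. Joining peaks up to 500 bp apart could change nothing, as the smallest gap was 501 bp. Other nucleus minimums, leaving out the 5% of nuclei with the most counts and marker-high nuclei alone moved no median ratio past its interval over domains. Counts per library fell with time, and with them the depth that supports peak calling.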
